A study of Mus musculus with 6 samples.

Results

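The genes described here are 44 components of the Wnt pathway, taken by symbol and grouped by role: ligands and their acylation, receptors, the R-spondin axis, secreted inhibitors, Dishevelled and the destruction complex, the TCF and LEF transcription factors, and target or feedback genes. All 44 were found by GENCODE M21 symbol among the 55401 gene IDs of each library. RNA was sequenced from lamina propria cells isolated from the colon of male Apc Min/+ mice aged 5 to 6 weeks. The vehicle group (3 libraries) was gavaged with 2% Tween 80 and the atorvastatin group (3 libraries) with atorvastatin at 20 mg/kg, on alternate days in both groups. Every mouse carried the Min allele, a truncating germline allele of Apc carried on 1 chromosome copy and present in stromal and immune cells as well as in the epithelium, and no library of wild-type mice was analysed here. The labels give neither the length of dosing nor the animal behind each library. The p-values therefore rest on the scatter of these 6 libraries, part or all of which may be technical.

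Wnt proteins are secreted lipid-modified ligands that bind a Frizzled receptor and the co-receptor LRP5 or LRP6. Without ligand, a destruction complex built on APC and Axin lets GSK3 mark beta-catenin for degradation; with ligand, Dishevelled disables that complex, beta-catenin enters the nucleus, and TCF and LEF factors switch on target genes. In the colon, cells of the lamina propria are a main source of Wnt and R-spondin proteins for the crypt, where epithelial stem cells respond to them.

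Values were FPKM, fragments per kilobase of transcript scaled to the library's fragments, a unit that corrects for gene length and so allows levels of different genes to be compared. FPKM sums ran from 355787 to 456064 per library, and the number of fragments behind them is unknown. Vehicle library 3 stood apart, with a mean Pearson's r across genes of 0.944 to the other libraries against 0.957 to 0.961 for the rest. The labelled lamina propria cells were a mixture: none of the 10 fibroblast, 10 endothelial, 8 T cell, 8 B cell or 6 plasma cell markers was at 0 in any library. Summed fibroblast markers lay at 1178 to 1545 FPKM with vehicle and 1164 to 1507 with atorvastatin, whereas the 13 colonic epithelium markers summed to 39.2 to 52.1 and 22.8 to 52.3 FPKM, with 2 of them, Cdx2 and Slc26a3, at 0 in some libraries. Of the marker sums, 2 did not overlap between the groups: the 8 B cell markers (342.6 to 458.3 FPKM with vehicle, 274.3 to 293.6 with atorvastatin) and the 5 pan-leukocyte markers (424.6 to 476.6 and 349.8 to 387.6). The fibroblast, telocyte and adventitial, smooth muscle and pericyte, endothelial, epithelial, glial, T cell, plasma cell and macrophage sums overlapped. Beside them, groups did not overlap in 14.4% of the 13590 single genes tested. In these bulk libraries, fewer cells of a type and less RNA per cell cannot be told apart.

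None of the Wnt pathway genes passed the test between atorvastatin and vehicle. Of the 44 genes, 35 reached 1 FPKM in at least 3 libraries and were tested together with all 13590 genes that did so, by limma on log2(FPKM + 1) with Benjamini-Hochberg adjustment. At an adjusted p under 0.05, 0 of the 35 and 0% of all genes were called. At an unadjusted p under 0.05 there was 1 of the 35, Dvl2, against 7.17% of all genes (3.13% higher and 4.04% lower with atorvastatin). Differences, always atorvastatin minus vehicle on the log2(FPKM + 1) scale, ran from -0.36 in Sfrp2 to 0.50 in Wnt2b. They were positive in 25 of the 35 genes (71.4%), beside 47% of all genes, and negative in 10, beside 53%. Their median was 0.08 beside -0.02 for all genes. With library sums made equal after immunoglobulin and mitochondrial genes were left out, 30 of the 35 were positive beside 58.6% of all genes. The count was 20 with a trend on gene length removed (48.7% of all genes) and 20 without atorvastatin library 3 (43.3% of all genes). The groups did not overlap in 4 of the 35 (11.4%), beside 14.4% of all genes. All 4 (Wnt2b, Wnt5a, Dvl2 and Tcf7l2) were higher with atorvastatin, the direction of 5.53% of all genes, against 8.85% lower. Tcf7l2 passed the filter through the atorvastatin libraries. Wnt9a and Dkk2, which the filter left out, were lower with atorvastatin without overlap. Among the 35, atorvastatin library 3 held the highest value of 11 genes and the lowest of 0, and vehicle library 3 held the lowest value of 12 and the highest of 5.

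The precision of these libraries bounds what could be seen. For 33 of the 35 genes (all but Wnt2b and Apc) the 95% interval stayed inside 1 log2 unit on either side of 0, as it did for 89.8% of all genes. For 15 of the 35 it stayed inside 0.5 units, beside 46.3% of all genes. The log2(FPKM + 1) scale understates changes in genes near 1 FPKM.

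**Figure D1:**
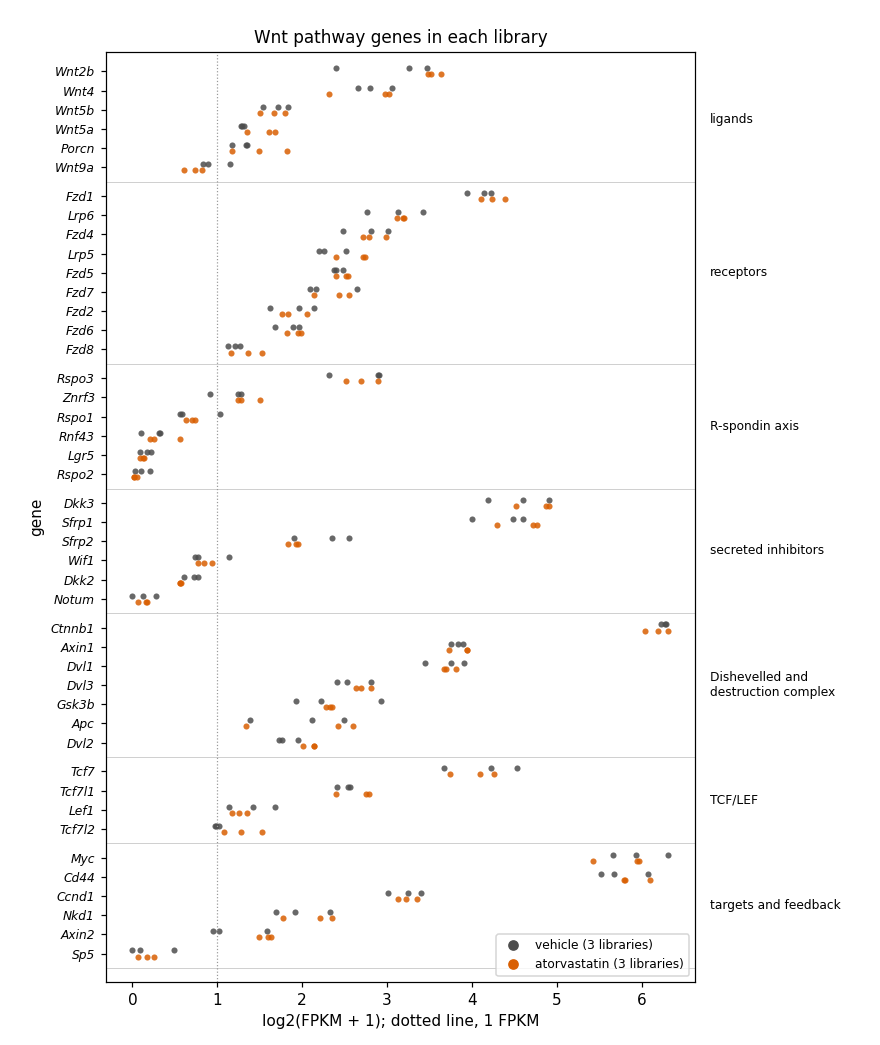
Level of the 44 Wnt pathway genes in each library, as log2(FPKM + 1), ordered within each role by mean FPKM; each point is a library, 3 with vehicle and 3 with atorvastatin. Ctnnb1, Myc and Cd44 lie farthest to the right, and Lgr5, Rspo2, Notum and Sp5 lie near 0 in both groups.

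**Figure D2:**
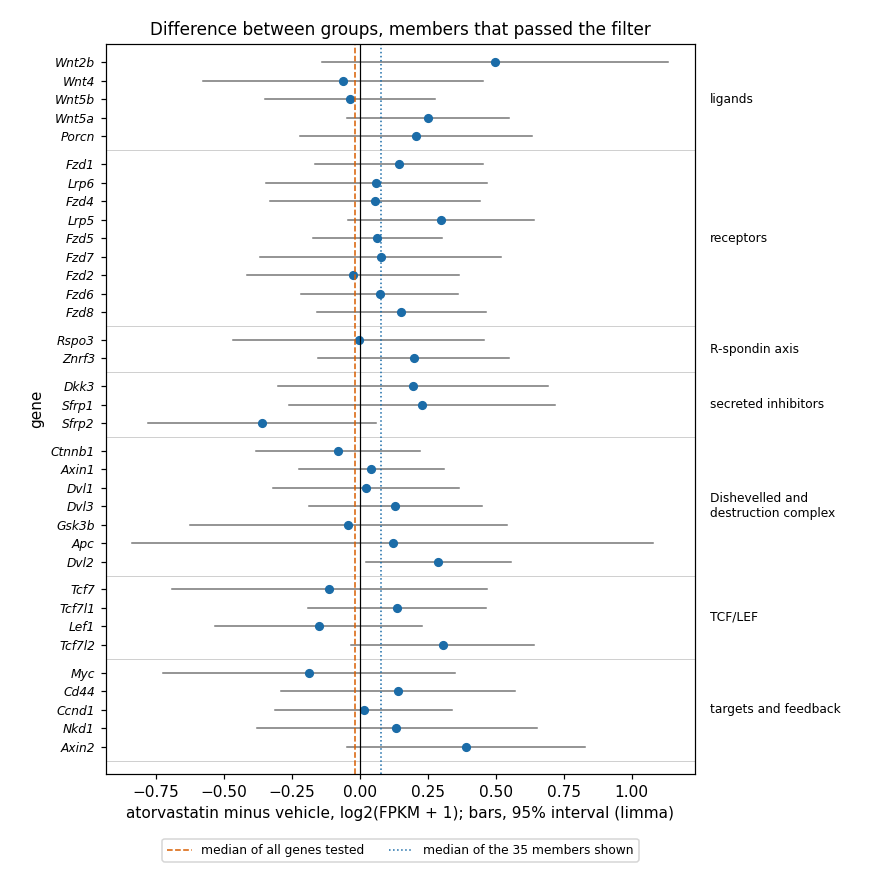
Difference between the groups (atorvastatin minus vehicle, log2(FPKM + 1)) for the 35 genes that passed the filter; points are limma estimates and bars their 95% intervals. The interval leaves out 0 for 1 gene, Dvl2, and the median of the 35 (0.08) lies to the right of that of all genes tested (-0.02).

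Wnt2b was the most abundant ligand in 5 of the 6 libraries. It activates the beta-catenin branch and is made by mesenchymal cells of the gut. Its level was 10.05, 8.58 and 4.29 FPKM in vehicle libraries 1, 2 and 3 and 10.42, 10.16 and 11.38 FPKM in atorvastatin libraries 1, 2 and 3. The groups did not overlap, but vehicle library 1 lay just below the lowest atorvastatin library, and vehicle library 3 lay far below the others. The difference was 0.50 (SE 0.27, limma adjusted p = 0.699; gene on chromosome 3, 104945272 to 104961921, mm10), and 0.18 without vehicle library 3.

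Wnt4, which signals through both branches depending on the cell, was the ligand next in level, with 5.93, 5.31 and 7.30 FPKM with vehicle and 7.15, 3.98 and 6.87 FPKM with atorvastatin. In vehicle library 3, and there alone, it exceeded Wnt2b. Its groups overlapped widely (difference -0.06, SE 0.22).

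Wnt5a, the main ligand of the beta-catenin-independent branch, had 1.49, 1.43 and 1.44 FPKM with vehicle and 2.21, 1.54 and 2.05 FPKM with atorvastatin. The vehicle libraries were nearly equal and each atorvastatin library lay above them, atorvastatin library 2 by little. The difference was 0.25 (SE 0.13, limma adjusted p = 0.696; chromosome 14, 28504750 to 28527448). Beside it, the 10 markers of subepithelial telocytes and adventitial fibroblasts, led by F3 and Col15a1, summed to 135.4 to 167.8 FPKM with vehicle and 134.7 to 175.8 with atorvastatin. Of the 10, 7 had a higher mean with atorvastatin and 3 (Pi16, Ackr4 and Cd34) a lower one. The part of these 10 markers in the Wnt5a values was not tested.

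Wnt9a stayed below the filter, at 0.86, 1.22 and 0.78 FPKM with vehicle and 0.67, 0.77 and 0.52 with atorvastatin. Its groups did not overlap either, in the opposite direction, with p = 0.1 in a two-sided exact permutation test, the smallest that 3 against 3 libraries allow. Wnt5b (2.25 ± 0.321 and 2.17 ± 0.316 FPKM, SD, n = 3) and Porcn, the acyltransferase that adds the lipid Wnt proteins need for secretion (1.44 ± 0.165 and 1.86 ± 0.642 FPKM), overlapped between the groups.

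The make-up of the 19 Wnt genes could be followed as shares of their summed FPKM, which a common scaling of a library does not alter. The sum was 25.4, 25.2 and 21.1 FPKM with vehicle and 28.4, 23.2 and 28.2 FPKM with atorvastatin. Wnt2b held 39.6%, 34.1% and 20.3% of it with vehicle and 36.7%, 43.7% and 40.3% with atorvastatin, so that its share overlapped between the groups although its level did not. Wnt9a held 3.98% ± 0.771 and 2.50% ± 0.747 (SD, n = 3), and Wnt2, a further beta-catenin ligand outside the 44 genes, 10.2% ± 1.30 and 7.58% ± 1.24. Both shares were lower in every atorvastatin library than in every vehicle library (p = 0.1 each in the exact permutation test). The shares of a family depend on each other, so the tests on them are not independent.

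**Figure D3:**
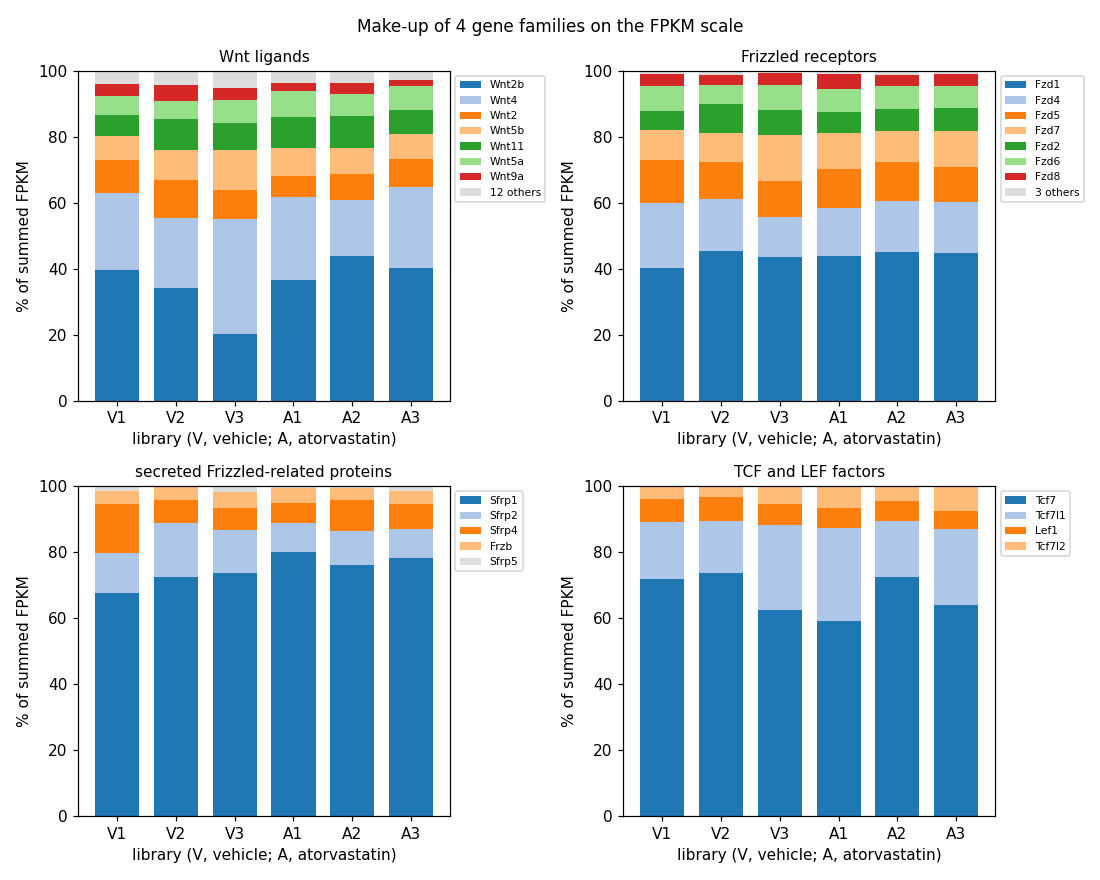
Make-up of 4 gene families in each library (V, vehicle; A, atorvastatin; numbered by replicate), as the percentage of the family's summed FPKM; stacked colours are genes. Wnt2b takes the smallest share of the Wnt genes in V3 (20.3%), and Sfrp1 takes a larger share of its family in A1 to A3 (75.9% to 80.0%) than in V1 to V3 (67.5% to 73.6%).

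Fzd1 was the leading Wnt receptor gene, with 14.38, 17.61 and 16.63 FPKM with vehicle and 17.89, 16.20 and 19.99 FPKM with atorvastatin (difference 0.14, SE 0.13). It made up 40.2% to 45.5% of the summed FPKM of the 10 Frizzled genes over all libraries, 43.1% ± 2.69 with vehicle and 44.6% ± 0.526 with atorvastatin (SD, n = 3). The order of the other Frizzled genes by mean level over the 6 libraries was Fzd4 (6.02 FPKM), Fzd5 (4.48), Fzd7 (4.11), Fzd2 (2.74), Fzd6 (2.69) and Fzd8 (1.43). Ranges of neighbours in that order overlapped from Fzd4 down to Fzd6. The make-up of the family hardly varied among the atorvastatin libraries: no share of these 7 genes had an SD above 0.831 percentage points there.

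The co-receptor gene Lrp6 had 9.68, 7.74 and 5.81 FPKM with vehicle and 8.15, 7.67 and 8.10 with atorvastatin. Its partner Lrp5 had 3.77, 4.70 and 3.59 FPKM with vehicle and 5.59, 4.29 and 5.66 with atorvastatin. Vehicle library 2 lay above atorvastatin library 2 for Lrp5, so the groups overlapped, and its difference was 0.30 (SE 0.14, limma adjusted p = 0.696). Of the 9 receptor genes, 8 had a positive difference, with a median of 0.07 and a range from -0.02 to 0.30, and 0 reached an unadjusted p under 0.05.

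R-spondins strengthen Wnt signals by binding LGR receptors and removing the ubiquitin ligases RNF43 and ZNRF3, which otherwise clear Frizzled from the membrane. Rspo3 was the leading R-spondin gene, with 6.51, 3.97 and 6.40 FPKM with vehicle and 5.45, 4.72 and 6.43 with atorvastatin. It made up 85.5% to 90.9% of the summed FPKM of the 4 R-spondin genes, and its difference was -0.004 (SE 0.19, limma adjusted p = 0.999). Rspo1 had 0.677 ± 0.324 and 0.617 ± 0.0611 FPKM (SD, n = 3). Rspo2 had 0.15, 0.07 and 0.02 FPKM with vehicle and 0.01, 0.01 and 0.04 with atorvastatin, levels too low to compare.

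Znrf3 had 1.37, 1.42 and 0.88 FPKM with vehicle and 1.43, 1.83 and 1.37 with atorvastatin, so that vehicle libraries 1 and 2 lay within reach of the atorvastatin libraries and library 3 below them (difference 0.20, SE 0.15). Rnf43 reached at most 0.47 FPKM and Lgr5, the marker of crypt base stem cells, at most 0.16 FPKM. Lgr4, a related R-spondin receptor outside the 44 genes, had 1.68 ± 0.0954 and 1.82 ± 0.248 FPKM (SD, n = 3). Rspo3 thus exceeded both receptor genes in level, whereas Rspo1 and Rspo2 lay below Lgr4. The epithelial markers Epcam and Krt8 had 12.4 ± 1.17 and 9.36 ± 2.97 FPKM with vehicle and 10.7 ± 2.69 and 6.03 ± 4.75 FPKM with atorvastatin (SD, n = 3). Of the 13 colonic epithelium markers, 11 had a lower mean with atorvastatin and 2 a higher one. Their part in the values of Lgr5 and Rnf43 was not tested.

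The secreted inhibitors spanned a wide range of levels: Dkk3 and Sfrp1 ranked 4 and 5 among the 44 genes, Sfrp2 ranked 23, and Dkk2, Wif1 and Notum were below the filter. Dkk3, a divergent member of the Dickkopf family, had 17.28, 23.28 and 29.06 FPKM with vehicle and 28.98, 21.89 and 28.19 with atorvastatin. Sfrp1, a Frizzled-related decoy that binds Wnt proteins, had 14.98, 21.43 and 23.26 FPKM with vehicle and 25.22, 18.59 and 26.25 with atorvastatin. Both were lowest in vehicle library 1 and next lowest in atorvastatin library 2, as was the fibroblast collagen gene Col1a1 (72.59, 115.04 and 111.24 FPKM with vehicle, 141.95, 77.49 and 138.22 with atorvastatin), a marker picked for this after its values were seen. Of the 10 fibroblast markers, 5 had these lowest libraries in this order (Col1a1, Col3a1, Col6a1, Col6a2 and Dpt). Pdgfra was lowest in vehicle 1 and then vehicle 2, and Dcn, Lum, Col1a2 and Thy1 were lowest in atorvastatin 2. Differences were 0.20 (SE 0.21) for Dkk3 and 0.23 (SE 0.21) for Sfrp1. Without vehicle library 1 they were 0.008 and 0.05, and with array weights, which weight libraries by their spread, 0.57 and 0.59. Of the fibroblast markers, led by Dcn and Dpt, 6 had a higher mean with atorvastatin and 4 a lower one, and their part in the values of Sfrp1 and Dkk3 was not tested.

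Sfrp2, a relative of Sfrp1, had the lowest difference of all 35 genes, with 2.73, 4.85 and 4.11 FPKM with vehicle and 2.81, 2.57 and 2.87 with atorvastatin (difference -0.36, SE 0.18, limma adjusted p = 0.696). Vehicle library 1 lay among the atorvastatin libraries. As shares of the 5 Sfrp family genes (Sfrp1, Sfrp2, Sfrp4, Sfrp5 and Frzb), however, the groups did not overlap for either gene. Sfrp1 held 71.2% ± 3.23 with vehicle and 78.1% ± 2.02 with atorvastatin, and Sfrp2 13.9% ± 2.19 and 9.32% ± 1.03 (SD, n = 3, p = 0.1 each in the exact permutation test). Since a larger share of 1 gene lowers those of the rest, these are not separate results. Over the 7 families followed in this way, 9 of 47 shares did not overlap between the groups. Levels, which are not a like measure, did not overlap in 14.4% of all genes tested. The 9 include tied shares, such as those of Sfrp1 and Sfrp2, and the share of Wnt10a, a gene near 0. The smallest p adjusted by Benjamini-Hochberg over the 47 exact permutation tests was 0.522.

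Dkk2, which encodes a Dickkopf protein that binds LRP5 and LRP6, was below the filter at 0.53, 0.65 and 0.71 FPKM with vehicle and 0.47, 0.48 and 0.49 with atorvastatin. The atorvastatin libraries were nearly equal and all lay below the vehicle libraries (exact permutation test, two-sided p = 0.1). Wif1, which binds Wnt proteins directly, had 0.860 ± 0.295 and 0.803 ± 0.101 FPKM (SD, n = 3). Notum, a feedback enzyme that removes the lipid from Wnt proteins and is induced in Apc-mutant epithelium, reached at most 0.21 FPKM and was listed at 0 in vehicle library 1.

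Apc itself had 3.32, 1.61 and 4.62 FPKM with vehicle and 4.34, 1.52 and 5.06 FPKM with atorvastatin. It was lowest in the library numbered 2 of each group, and no other of the 35 genes had a standard error as large (difference 0.12, SE 0.40, 95% interval -0.84 to 1.08 in limma). These values sum both alleles and so do not check the genotype. The difference was -0.18 without vehicle library 2.

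Ctnnb1, which encodes beta-catenin, had the highest level of all 44 genes with 73.72, 76.19 and 76.81 FPKM with vehicle and 64.58, 72.03 and 78.50 with atorvastatin (difference -0.08, SE 0.13, 95% interval -0.38 to 0.22). Axin1, the scaffold of the destruction complex, had 13.30, 13.83 and 12.52 FPKM with vehicle and 12.22, 14.36 and 14.41 with atorvastatin (difference 0.04, SE 0.11). Gsk3b, a kinase of the complex, had 6.59, 3.68 and 2.80 FPKM with vehicle and 4.01, 4.10 and 3.84 with atorvastatin, a wider spread among the vehicle libraries than among the others.

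Dvl2 encodes a Dishevelled adaptor and had 2.39, 2.85 and 2.31 FPKM with vehicle and 3.03, 3.42 and 3.42 FPKM with atorvastatin. Each atorvastatin library lay above every vehicle library, and the difference was 0.29 (SE 0.11, 95% interval 0.02 to 0.56), with an unadjusted p = 0.0376 and an adjusted p = 0.692 in limma (chromosome 11, 70000595 to 70012301). The unadjusted p was 0.076 without vehicle library 3 and stayed above 0.05 without any 1 library other than vehicle library 2. Its relatives overlapped between the groups, with Dvl1 at 12.1 ± 2.11 and 12.2 ± 0.696 FPKM and Dvl3 at 5.02 ± 0.863 and 5.56 ± 0.426 FPKM (SD, n = 3). As a share of the 3 Dishevelled genes, Dvl2 held 12.2%, 12.5% and 14.0% with vehicle and 15.2%, 16.5% and 15.2% with atorvastatin, and Dvl1 held less in every atorvastatin library than in any vehicle library (p = 0.1 each in the exact permutation test). The Dvl1 level hardly differed between the groups, and shares within a family are tied, so its lower share is not a separate result.

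Tcf7, which encodes TCF1, the factor of T cells and their progenitors, was the leading gene of its family, with 59.1% to 73.5% of the summed FPKM of the 4 TCF and LEF genes. It had 17.71, 22.16 and 11.77 FPKM with vehicle and 12.42, 18.21 and 16.01 with atorvastatin (difference -0.11, SE 0.24). The order of the 6 libraries by Tcf7 was that by Cd3e, which encodes part of the CD3 complex of T cells and was picked for this after its values were seen: vehicle 2, atorvastatin 2, vehicle 1, atorvastatin 3, atorvastatin 1, vehicle 3. None of the other 7 T cell markers gave this order; Cd3g exchanged the last 2 places, and Cd3d was highest in vehicle 1 and lowest in atorvastatin 3. Cd3e had 4.49, 6.58 and 3.51 FPKM with vehicle and 3.80, 5.66 and 4.07 with atorvastatin.

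Lef1, shared by T cells and other Wnt-responding cells, had 1.68, 2.20 and 1.20 FPKM with vehicle and 1.26, 1.55 and 1.39 with atorvastatin (difference -0.15, SE 0.16), in the same order of libraries except that vehicle 1 and atorvastatin 2 changed places. It held 6.80%, 7.30% and 6.35% of the family's summed FPKM with vehicle and 6.00%, 6.17% and 5.56% with atorvastatin, lower without overlap (exact permutation test, p = 0.1). The 8 T cell markers together, led by Cd2 and Trac, summed to 82.0 to 97.7 FPKM with vehicle and 71.8 to 86.6 with atorvastatin, and 7 of the 8 had a lower mean with atorvastatin. Their part in the values of Tcf7 and Lef1 was not tested.

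Tcf7l2, which encodes TCF4, the main partner of beta-catenin in the gut epithelium, had 0.98, 0.96 and 1.02 FPKM with vehicle and 1.43, 1.11 and 1.88 with atorvastatin. The groups did not overlap and the difference was 0.30 (SE 0.14, limma adjusted p = 0.696; chromosome 19, 55741820 to 55933654). It reached 1 FPKM in 3 atorvastatin libraries and 1 vehicle library, so its place among the tested genes rested on the atorvastatin libraries. Tcf7l1, mostly a repressor, had 4.32, 4.83 and 4.90 FPKM with vehicle and 5.90, 4.25 and 5.73 with atorvastatin (difference 0.14, SE 0.14).

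**Figure D4:**
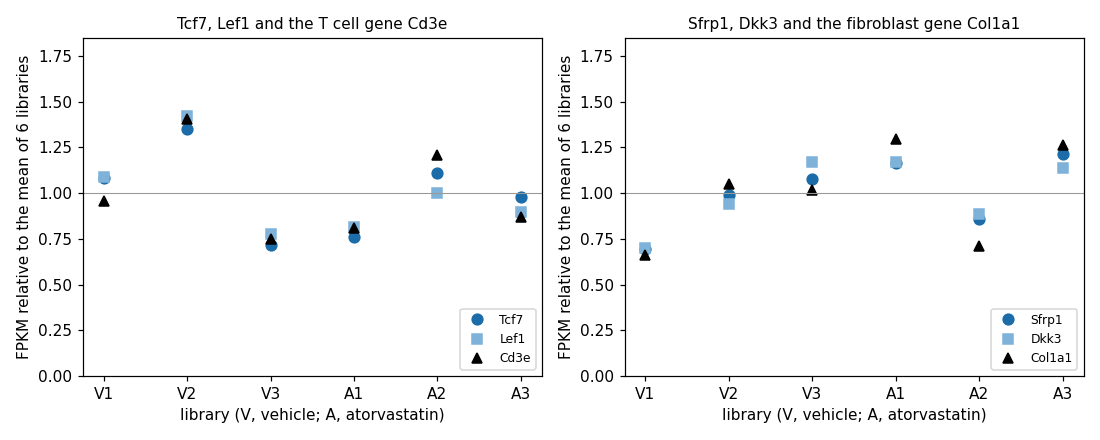
FPKM of each gene divided by its mean over the 6 libraries (V, vehicle; A, atorvastatin; numbered by replicate). In the left panel Tcf7, Lef1 and Cd3e are highest in V2 and lowest in V3; in the right panel Sfrp1, Dkk3 and Col1a1 are lowest in V1.

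Target genes of the pathway split by level. Myc, the growth regulator, had 60.10, 49.50 and 78.27 FPKM with vehicle and 61.71, 41.86 and 60.60 with atorvastatin (difference -0.19, SE 0.23). Cd44, a hyaluronan receptor that leukocytes also express, had 50.16, 44.84 and 66.21 FPKM with vehicle and 54.39, 67.17 and 55.00 with atorvastatin (difference 0.14, SE 0.18). Ccnd1, which encodes cyclin D1, had 8.37 ± 1.28 and 8.42 ± 0.734 FPKM (SD, n = 3). All 3 overlapped between the groups.

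Axin2, a feedback inhibitor widely used as a readout of beta-catenin activity, had 0.93, 1.99 and 1.03 FPKM with vehicle and 2.09, 1.82 and 2.03 with atorvastatin. Vehicle library 2 lay with the atorvastatin libraries, and the other vehicle libraries were below them. The difference was 0.39 (SE 0.18, limma adjusted p = 0.696; chromosome 11, 108920349 to 108950783). Nkd1, a feedback gene whose product binds Dishevelled, had 2.23, 2.76 and 4.02 FPKM with vehicle and 4.11, 2.42 and 3.62 with atorvastatin. Sp5, a transcription factor gene that responds directly to beta-catenin, reached at most 0.41 FPKM and was listed at 0 in vehicle library 2.

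The pathway's own transcription factors read a short sequence, and the promoters of 26 of the 44 genes could be searched for it in RefSeq windows of the 250 bases before each annotated start (GRCm38.p6). The motif was CTTTG followed by AA, AT, TA or TT, on either strand, with overlapping matches counted separately. It was present in 5 of 35 windows of these genes (14.3%), in Fzd7, Sp5, Lef1, Wnt5b and Tcf7l2, beside 14.8% of all 32851 windows. Windows are given for Sp5 and Axin2, a pair of classic target genes that differ in the motif and in level. The inner start of Tcf7l2 is given because its window had a match. The other Tcf7l2 window had 0 matches, as did the windows of Wnt2b and Dvl2, whose groups also did not overlap. Capitals mark the motif, and all 3 lie on the plus strand, at chr2:70474673-70474922, chr11:108920099-108920348 and chr19:55895071-55895320.
Sp5: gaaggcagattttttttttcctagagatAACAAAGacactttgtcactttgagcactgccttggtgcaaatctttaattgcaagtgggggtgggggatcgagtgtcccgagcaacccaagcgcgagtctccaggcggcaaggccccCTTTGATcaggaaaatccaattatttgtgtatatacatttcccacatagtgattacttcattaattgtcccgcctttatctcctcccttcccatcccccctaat
Axin2: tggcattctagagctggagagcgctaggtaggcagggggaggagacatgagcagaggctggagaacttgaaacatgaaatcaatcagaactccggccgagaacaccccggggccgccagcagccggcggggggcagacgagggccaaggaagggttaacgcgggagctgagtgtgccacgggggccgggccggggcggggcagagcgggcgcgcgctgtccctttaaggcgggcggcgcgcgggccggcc
Tcf7l2: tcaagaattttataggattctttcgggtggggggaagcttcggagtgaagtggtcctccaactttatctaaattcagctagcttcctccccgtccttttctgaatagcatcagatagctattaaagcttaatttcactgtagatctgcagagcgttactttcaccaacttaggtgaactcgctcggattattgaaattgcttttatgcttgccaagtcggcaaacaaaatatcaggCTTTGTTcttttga
Sp5, nearly silent here, had 2 matches, and the inner window of Tcf7l2 had 1. Axin2, whose mean level was 1.65 FPKM over the 6 libraries, had 0 in its window. A match is a description of the letters, and windows farther from the start were not searched.

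A further 85 Wnt pathway genes, listed by role, were read in the same way. Of these, 50 passed the filter, and 0 were called at an adjusted p under 0.05. Differences were positive in 38 of the 50 (76.0%), beside 47% of all genes, with a median of 0.13 beside -0.02. At an unadjusted p under 0.05 there were 7 of the 50, all higher with atorvastatin, beside 3.13% of all genes higher at that threshold. That count was 1 without atorvastatin library 3, 2 without atorvastatin library 1 or vehicle library 1, and 11 without atorvastatin library 2. Over all genes, the count at that threshold in either direction moved as well, from 974 to 734 without vehicle library 1. The groups did not overlap in 11 of the 50 (22.0%), all higher, beside 14.4% of all genes (5.53% higher and 8.85% lower). Among the 35 genes below the filter, Wnt10a (at most 0.12 FPKM) and Wnt10b (at most 0.55 FPKM) were lower with atorvastatin without overlap. Apc2 (at most 0.21 FPKM) was higher without overlap. For each, p was 0.1 in the exact permutation test, the smallest that 3 against 3 libraries allow. As with Rspo2, the levels of Wnt10a and Apc2 were too low to compare.

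Ror2, a receptor for Wnt5a, had 1.80, 2.01 and 2.16 FPKM with vehicle and 3.31, 2.43 and 3.24 with atorvastatin (difference 0.41, SE 0.13, limma adjusted p = 0.692). Prickle2, of the planar polarity arm, had 3.44, 3.33 and 4.37 FPKM with vehicle and 5.90, 4.63 and 5.72 with atorvastatin (0.45, SE 0.14, limma adjusted p = 0.692). Both genes were higher in every atorvastatin library than in every vehicle library. All 5 measured genes of the planar polarity arm had a positive difference, with a median of 0.28, and 3 of them, Prickle2, Daam1 and Daam2 (the last 2 named after their values were seen), had an unadjusted p under 0.05 in limma, beside 3.13% of all genes higher at that threshold. A positive sign in every measured gene was not particular to this arm. It held too for the 7 measured receptors and coreceptors among the 85 genes (median 0.12), of which 2 passed the same p threshold. Positive differences numbered 17 of 22 among other cytoplasmic and nuclear components and 7 of 10 among other target genes. They numbered 1 of 3 among ligands and their release, and 1 of 3 among secreted inhibitors. With the length trend removed, Daam2 kept to that side of the p threshold, and Prickle2 (difference 0.29) and Daam1 (0.16) did not. With the replicate number as a block, Prickle2 did, and Daam1 and Daam2 did not.

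The inhibitory genes Nkd2 (1.04 ± 0.0252 and 1.57 ± 0.138 FPKM, SD, n = 3), a relative of Nkd1, and Kremen1 (6.97 ± 0.618 and 9.10 ± 0.867 FPKM), a receptor for Dickkopf proteins, also had groups that did not overlap. Pygo2, a nuclear co-activator, had 3.16, 3.05 and 0.68 FPKM with vehicle and 4.21, 5.14 and 4.37 with atorvastatin, with vehicle library 3 far below the rest; its difference was 0.87 (SE 0.35), and 0.44 without that library. The most abundant of the 85 were Jun (177.9 ± 6.01 and 231.6 ± 44.7 FPKM), which stress and tissue handling also induce, Gsk3a (74.5 ± 8.42 and 92.3 ± 16.3 FPKM) and Id2 (50.5 ± 7.16 and 50.0 ± 6.75 FPKM). For Gsk3a and Id2 the groups overlapped, and for Jun they did not (difference 0.36, SE 0.18, limma adjusted p = 0.696). Of the other 14 Wnt ligands, Wnt2 and Wnt11 alone passed the filter.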

How the data were processed

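RNA from 6 libraries of colon lamina propria cells, 3 per group, was analysed. Per the submitters' processing notes, reads were checked with FastQC 0.11.2 and aligned with Bowtie to mm10; the sources used here name no quantifier, annotation or strand setting. The authors deposited FPKM per gene ID for each library, so fragment counts and depth are unknown, and reads of overlapping genes may not have been separated. IDs were matched to GENCODE M21, in which 55141 of 55401 had a symbol. Genes that reached 1 FPKM in 3 or more libraries were tested on log2(FPKM + 1) with limma 3.58.1 (R 4.3.3). An intensity trend and a Benjamini-Hochberg threshold of 0.05 were used. In simulated data, limma estimates averaged close to planted changes of 1 or 2 log2 units. Smaller changes were not simulated, so that check does not bear on differences of the size seen here. Genes below the filter and family shares were compared by two-sided exact permutation tests. Values in every library are given for Apc, for the 2 most abundant genes of each role, and for members with an unadjusted p under 0.05 or groups that did not overlap; those of Lrp5, Rspo2, Sfrp2, Gsk3b, Lef1, Axin2 and Nkd1 were added after their values were seen. Of the 85 further genes, the 5 with the smallest p and the 3 most abundant are named. Wnt2, Wnt10a, Wnt10b and Apc2 were added after their values were seen. Members and lists were chosen with earlier results of these data known. Alternatives covered the pseudocount, filter, scaling, variance model, gene length, replicate block and leaving out each library.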

Additional observations from a re-analysis of the deposited data

How the results depend on the processing

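None of the 35 measured Wnt pathway genes was called by limma under any of 10 other settings or without any 1 library, and the lowest adjusted p among those followed singly was 0.0854. Of 30 genes followed singly, 24 kept their sign throughout. Over all genes, 0 calls became 4 with array weights and ranged from 0 to 2 when a library was left out (1 without atorvastatin library 1, 2 without atorvastatin library 3). The median difference of the 35 measured genes, 0.08, was 0.16 with array weights and ranged from 0.05 to 0.13 when a library was left out. At an unadjusted p under 0.05, the 1 of 35 became 12 with array weights and 4 with equal library sums. It became 3 with median-of-ratios scaling or the length trend removed, and 0 to 3 without a library. All genes went from 974 to 3413 with array weights, 1071 with equal sums or median-of-ratios scaling, and 993 with the length trend removed. The same count among the 50 further genes went from 7 to 21 with array weights and 12 with equal sums.

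Signs turned for 6 genes, whose differences in the main fit ran from -0.112 in Tcf7 to 0.121 in Apc, and the cause was not tested. Rspo3 was 0.022 with median-of-ratios scaling, 0.059 with equal sums and -0.199 to 0.099 without a library. Wnt4 was 0.001 with equal sums, 0.096 with array weights and -0.188 to 0.167 without a library. Lrp6 was -0.186 with array weights and -0.107 to 0.218 without a library. Axin1 was -0.002 with array weights and -0.001 with the length trend removed. Without a library, Apc ranged from -0.184 to 0.513 and Tcf7 from -0.347 to 0.083.

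Libraries that share a replicate number did not deviate together for numbers 1 and 3 (Pearson's r across genes of -0.109 and -0.015). For number 2, r was 0.137, and these were the 2 of 6 libraries that correlated best with their own number. The highest r, 0.192, lay between vehicle library 3 and atorvastatin library 1. With a replicate block, 0 genes were called and the median of the 35 stayed at 0.077. An unadjusted p under 0.05 was reached by 0 of the 35, 5 of the 50 further genes and 852 of all genes. Daam1, Daam2 and Kremen1 no longer reached it. Fragment counts are unknown, so no counting error could be set beside genes under 1 FPKM, and 3 libraries a group kept the interval within 0.5 log2 units of 0 for 15 of the 35 genes.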
